A study of Homo sapiens with 6 samples.

Results

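The amino acid transporter solute carriers are membrane proteins that move amino acids, or close relatives of them, across the plasma membrane and the membranes of organelles. The members were chosen by gene symbol, as the genes of families SLC1 (A1 to A7), SLC3, SLC6, SLC7, SLC36, SLC38 and SLC43. Of 15024 genes in the table, 35 carried such a symbol, and 31 of these were abundant enough to enter the test of 14343 genes. A symbol says nothing of the substrate, and SLC6A4 (serotonin), SLC6A8 (creatine) and SLC43A3 (purine nucleobases) are members whose known substrate is not an amino acid.

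RNA was measured in MDA-MB-231, an established triple-negative breast cancer line. Every library came from cells that had an sgNT (non-targeting) guide and 14 days of growth with 10 μM forskolin, which acts on adenylyl cyclase to activate protein kinase A. The cells were sorted as CD44+ and, by the surface level of CD104 (integrin beta 4, the product of ITGB4), as CD104high or as CD104-/low, called CD104low here. In the study's terms the former are hybrid EMT cells and the latter mesenchymal, and each group had 3 libraries. One cell line with 1 treatment stands behind both groups, with no untreated library, so the values describe forskolin-treated cells of this line. MLL3-mutant cells, which the study also made, were not analysed here. Replicates are biological by their labels, which do not say if cultures or sorts were separate, and the p-values measure the spread between these 3 and 3 samples, which may be technical.

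Each library held between 52088604 and 56958065 gene reads. ITGB4 had a normalised read count of 19493, 15969.6 and 17515 in the CD104high libraries and 2317, 3116 and 3802 in the CD104low libraries, so the sort marker parted the groups. Of the markers of the line, VIM, CD44, AXL, CAV1 and MSN had group means between 21201 and 90905. CAV1 was higher in CD104high (47486 against 37130, log2 fold change 0.36, limma adjusted p = 0.0243). With the replicate number as a block, MSN was lower (−0.21, limma adjusted p = 0.0267). Of the line markers fixed as low or absent, EPCAM had 677 and 639, and ESR1, PGR and CDH1 had no row in the table. ERBB2, also fixed as low or absent, had 8727 in CD104high and 7571 in CD104low, above the median tested gene (1323). It was higher in CD104high with the block (0.20, limma adjusted p = 0.0264). Of 18 markers of other cell types, 6 entered the test and 2 of these rose in CD104high, against 12.1% of all tested genes. These were CD14 (548 ± 21.7 against 248 ± 13.2, mean ± SD, n = 3) and COL1A2 (1456 ± 334 against 541 ± 250.02). With the replicate number as a block, LUM (log2 fold change 2.22, limma adjusted p = 0.000413) and PDGFRB (0.62, 0.00102) were higher as well. This makes 4 of the 6, against 17.4% of all tested genes. LUM and PDGFRB were higher in each of the 3 numbered pairs, and in each group highest in the library numbered 3. LUM had 162, 201 and 643 in CD104high and 40.7, 21.7 and 222 in CD104low. PDGFRB had 3892 and 3018 in the libraries numbered 3. The markers summed to 5655 to 8097 in CD104high and 3404 to 5427 in CD104low, while PTPRC, CD3E, LYZ, CDH5, VWF, HBB, ALB and SFTPC were among those with no row. Their part in the results was not tested. Both libraries numbered 3 stood apart from the others on a principal component with 26.0% of the variance, the one after the component (44.2%) that separates CD104high from CD104low.

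Amino acids cross the membrane on several kinds of carrier that work together. Sodium-driven carriers load the cell with glutamine, alanine and other small neutral amino acids, and exchangers then trade these for leucine and other large or essential ones. The exchangers of the SLC7 family are light chains that reach the surface bound to a glycoprotein heavy chain, SLC3A2 (also called 4F2hc or CD98), whereas SLC7A1 and SLC7A2 carry arginine and lysine without one. In tumour cells SLC1A5, SLC7A5 and SLC7A11 are studied as routes for glutamine, leucine and cystine, and amino acids inside the cell are read by the kinase complex mTORC1 and, when a tRNA stays uncharged, by the kinase GCN2.

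The values of all members together summed to 346265 ± 31165 (SD, n = 3) in CD104high and 338057 ± 25966 in CD104low, of which SLC7A5 made up over 50%. Without SLC7A5 the sums were 149639, 142483 and 139031 in CD104high and 169088, 155693 and 153601 in CD104low, so the CD104high libraries lay lower with no overlap. These sums were not tested. Carriers for arginine and lysine (SLC7A1, SLC7A2), cystine (SLC7A11) and glutamine (SLC1A5, SLC38A1) had less RNA in CD104high cells. Carriers for glutamate (SLC1A3) and for small neutral amino acids (SLC1A4, SLC38A4) had more. Not every carrier of a substrate went the same way, and most SLC38 carriers take both glutamine and small neutral amino acids. SLC38A2 overlapped between the groups, and of the exporters of arginine and lysine SLC7A6 fell and SLC7A7, at a low level, rose. The 2 genes with most RNA per length, SLC7A5 and its heavy chain SLC3A2, overlapped between the groups. In the SLC7 light chains, the neutral SLC1 carriers and the SLC38 family, some members rose and others fell.

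Of the 31 tested members, 6 were higher in CD104high and 7 lower at an adjusted p under 0.05 (limma, Benjamini-Hochberg over all 14343 genes), against 12.1% higher and 11.3% lower of all tested genes. The 3 values of 1 group lay above the 3 of the other for 8 members higher in CD104high and 8 lower, against 19.9% and 21.3% of all tested genes. The median log2 fold change, CD104high over CD104low throughout, was 0.0049 over the members and 0.0089 over all tested genes. With the replicate number as a block, 8 members were higher and 9 lower, where 17.4% and 15.4% of all tested genes were. Without both libraries numbered 3, 4 were higher and 7 lower, with 1765 and 1464 of all 14343 tested genes. The count of higher members was 3 without CD104high replicate 1 (1017 of all tested genes) and 3 without CD104high replicate 2 (1120). It was 3 without CD104low replicate 1 (1488) and 2 without CD104low replicate 2 (1278). In bulk RNA, fewer cells that express a gene and less RNA of it in each cell cannot be told apart, and this holds for each value below.

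The direction went with the level, in the members and over all tested genes. The median gene in the test had a mean normalised read count of 1323. Of the 15 members above it, 7 were lower and 1 was higher, where of all genes above it 18.5% were lower and 11.9% higher. Of the 16 members at or below it, 5 were higher and 0 lower, where of all such genes 12.3% were higher and 4.17% lower. At an unadjusted limma p under 0.05, these low members gave 7 higher and 0 lower. Of all genes at or below the median, 20.2% were higher and 8.59% lower (18.7% and 18.2% of all tested genes). EdgeR, DESeq2 and limma-voom each called 0 of the low members lower, and 315, 364 and 314 of all 7172 such genes. With so few of all such genes lower, 0 of 16 does not set the members apart.

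**Figure D1:**
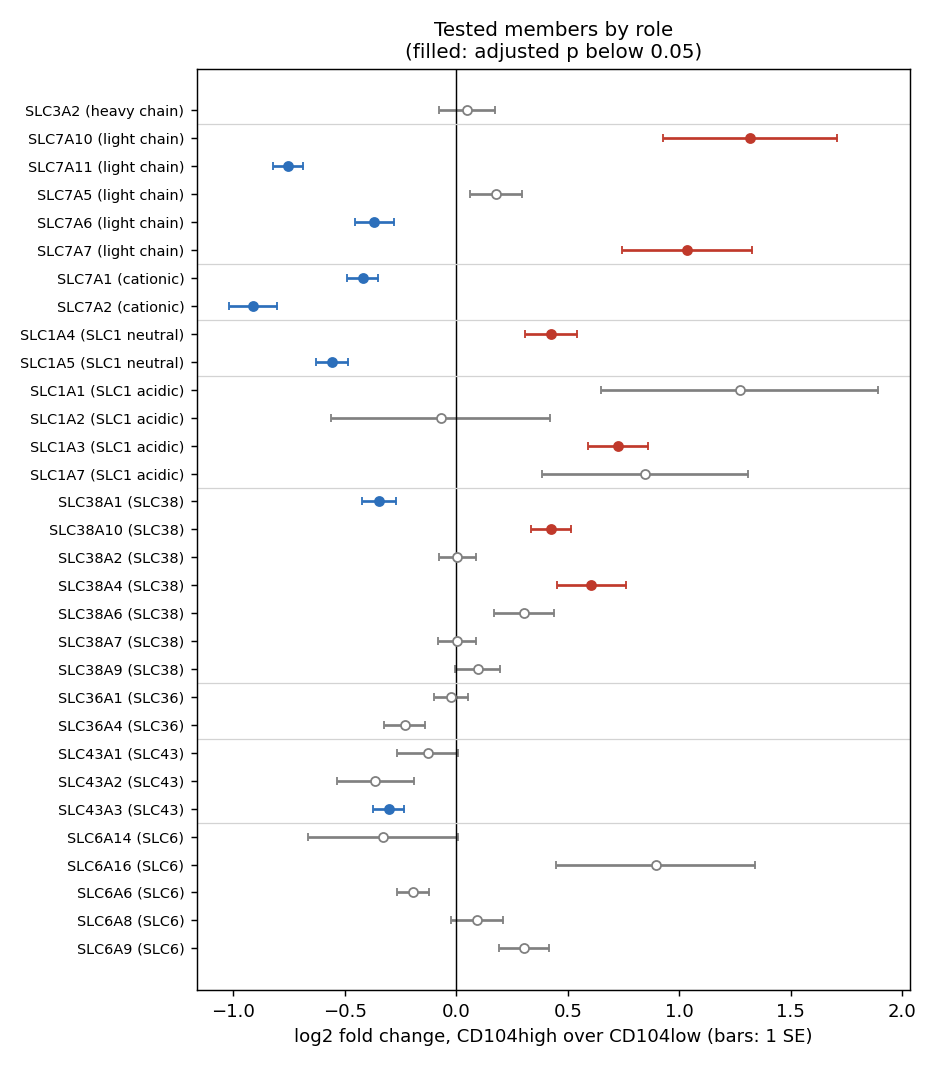
Log2 fold change (CD104high over CD104low, horizontal axis, bars 1 SE) of the 31 tested members, grouped by role, with filled points where the limma adjusted p was under 0.05 (blue lower, red higher). The light chains, the neutral SLC1 carriers and the SLC38 carriers each hold filled points on both sides of 0, and SLC3A2 and SLC7A5 are open.

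In RefSeq promoter windows (GRCh38.p14, 250 bases before to 50 after a transcript start), 29 of the 35 members had an entry, in 47 windows. SLC7A11, SLC1A2, SLC7A2, SLC7A4, SLC6A6 and SLC43A3 had none. The C/EBP-ATF element TGATGNAA, the kind of site through which the transcription factor ATF4 acts when amino acids are short, was searched on both strands. It lay in 6 of the 47 windows (12.8%) and in 3.62% of all 35116 windows. The 6 windows belong to 6 of the members described here, 3 that fell, 2 that rose and SLC3A2, and are shown for that reason as 30 bases on the strand of the gene, with the match in capitals (in SLC1A4 and SLC3A2 the element lies on the other strand, so the capitals are its reverse complement).
SLC1A5 (chr19:46784893-46784922, minus strand): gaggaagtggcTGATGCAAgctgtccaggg
SLC7A1 (chr13:29595663-29595692, minus strand): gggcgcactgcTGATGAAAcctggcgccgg
SLC38A1 (chr12:46266502-46266531, minus strand): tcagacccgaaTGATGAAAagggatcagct
SLC1A4 (chr2:64989381-64989410, plus strand): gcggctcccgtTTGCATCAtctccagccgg
SLC1A3 (chr5:36596357-36596386, plus strand): caggaaatgacTGATGCAAagcagggttaa
SLC3A2 (chr11:62881719-62881748, plus strand): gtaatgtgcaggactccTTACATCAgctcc
The first base of the match is at position −97 in SLC1A5, 8 in SLC7A1, −4 in SLC38A1, −7 in SLC1A4, −220 in SLC1A3 and 38 in SLC3A2. Position 1 is the first base transcribed from the RefSeq start of that window and −1 the base before it. This start can be 1 of several of a gene. It lies inside the gene span given below for SLC1A5, SLC38A1, SLC1A4 and SLC3A2. For SLC1A3 it lies before the span, and for SLC7A1 at its upstream end. A match describes these letters and shows no binding. The 3 members that fell and the 2 that rose carry the same element, so among these its presence did not go with 1 direction. SLC7A11, SLC7A2 and SLC43A3, which also fell, had no window to search. A link of the element to the direction was not tested.

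SLC7A11 encodes xCT, the light chain that takes up cystine, the oxidised dimer of cysteine, in exchange for glutamate, and so feeds glutathione synthesis. Its gene (ENSG00000151012.13) spans chr4:138164097-138242349 on the minus strand (GENCODE 29, GRCh38, as for each span here). It had normalised read counts of 4847, 4299.9 and 4638 in CD104high and of 7861, 7729.5 and 7616 in CD104low. Each CD104high value lay below each CD104low value, with a gap far wider than the spread within a group. The means were 4595 ± 276 (SD, n = 3) and 7736 ± 122, a log2 fold change of −0.75 (SE 0.07, limma adjusted p = 0.000195). The antisense transcript SLC7A11-AS1, whose span overlaps, was also lower (6.70 ± 3.51 against 21.2 ± 3.56, log2 fold change −1.63, adjusted p = 0.0371). Whether counting used strand is not given in the sources used here, and so reads of overlapping genes cannot be told apart.

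SLC7A5 encodes LAT1, the light chain that exchanges leucine and other large neutral amino acids. It held the largest share of the members' values, 51.2% to 60.8% in a library, and was 7 in rank among all 15024 genes by mean normalised read count (not corrected for length). Its values were 232503, 188265 and 186874 in CD104high and 198610, 163630 and 173550 in CD104low. The groups overlapped, and in both the library numbered 1 was the highest. The CD104high library was the higher in each of the 3 numbered pairs (adjusted p with the replicate block 0.102). It had a log2 fold change of 0.18 (95% interval −0.08 to 0.44, limma adjusted p = 0.296). SLC7A5 (ENSG00000103257.9) spans chr16:87830023-87869488 on the minus strand, and near-identical pseudogene copies elsewhere in the genome could take or give reads. The 250 bases before its RefSeq start follow, since no other member had as much RNA, with 1 TGACG (the short core of the cAMP response element) and 1 E-box (CACGTG) in capitals.
SLC7A5 (chr16:87869508-87869757, minus strand): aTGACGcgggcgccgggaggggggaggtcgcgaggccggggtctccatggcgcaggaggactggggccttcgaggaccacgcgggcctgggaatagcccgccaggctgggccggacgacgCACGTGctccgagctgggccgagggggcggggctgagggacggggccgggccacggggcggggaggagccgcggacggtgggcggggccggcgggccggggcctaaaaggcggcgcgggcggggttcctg

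SLC3A2, the heavy chain that both SLC7A5 and SLC7A11 need at the surface, had values of 59344, 52038 and 50329.8 in CD104high and 64207, 46483.5 and 47108 in CD104low. As for SLC7A5, the library numbered 1 was the highest of each group, and the groups overlapped (log2 fold change 0.05, 95% interval −0.23 to 0.33, limma adjusted p = 0.815). Its gene (ENSG00000168003.16) spans chr11:62856102-62888875 on the plus strand.

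The light chains SLC7A6 (y+LAT2) and SLC7A7 (y+LAT1) export arginine and lysine in exchange for neutral amino acids and sodium, and went opposite ways. SLC7A6 (ENSG00000103064.15, chr16:68264516-68301823, plus strand) had 2208, 2085 and 2012 in CD104high and 2493.5, 3010.1 and 2647 in CD104low. The groups did not overlap (log2 fold change −0.37, SE 0.09, limma adjusted p = 0.0145). The call was lost without CD104high replicate 2 (adjusted p = 0.0523) or CD104low replicate 2 (0.0554), and in limma without the mean-variance trend (0.0515). SLC7A6OS, on the opposite strand of the overlapping span, had a log2 fold change of −0.25 (adjusted p = 0.151).

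SLC7A7 (ENSG00000155465.18, chr14:22773222-22829820, minus strand) had 49.4, 40.7 and 61.7 in CD104high against 21.3, 25.6 and 24.7 in CD104low, with no overlap. At this low level the log2 fold change came to 1.04 (SE 0.29, limma adjusted p = 0.0288). The call was lost without CD104high replicate 1 (0.0905), CD104high replicate 3 (0.109), CD104low replicate 1 (0.0675) or CD104low replicate 2 (0.0572), and without both libraries numbered 3 (0.106).

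SLC7A10 (Asc-1) carries small neutral amino acids, D-serine among them. Its gene (ENSG00000130876.11) spans chr19:33208664-33225850 on the minus strand. It had the largest fold among the called members, also at a low level. Its values were 18.8, 33.7 and 37.0 in CD104high and 9.70, 11.8 and 11.3 in CD104low, with no overlap (log2 fold change 1.32, SE 0.39, limma adjusted p = 0.0352). The call was lost without CD104high replicate 2 (0.122) or 3 (0.126), without CD104low replicate 1 (0.0787), 2 (0.0670) or 3 (0.0511), and without both libraries numbered 3 (0.127). SLC7A9, the light chain that pairs with SLC3A1 in kidney and gut, had values from 2.06 to 15.9 and did not enter the test, and LRP3, whose span overlaps SLC7A10, had a log2 fold change of 0.06.

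Added up per kilobase of annotated exon, the 4 light chains of SLC3A2 other than SLC7A5 had 773 ± 34.99 normalised reads per kb in CD104high and 1168 ± 33.5 in CD104low. SLC7A5 had 42687 ± 5469 and 37639 ± 3799 per kb, and SLC3A2 had 10410.2 ± 925 and 10158 ± 1942. On this scale SLC7A5 was far above the other 4 light chains together in every library, in both groups.

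**Figure D2:**
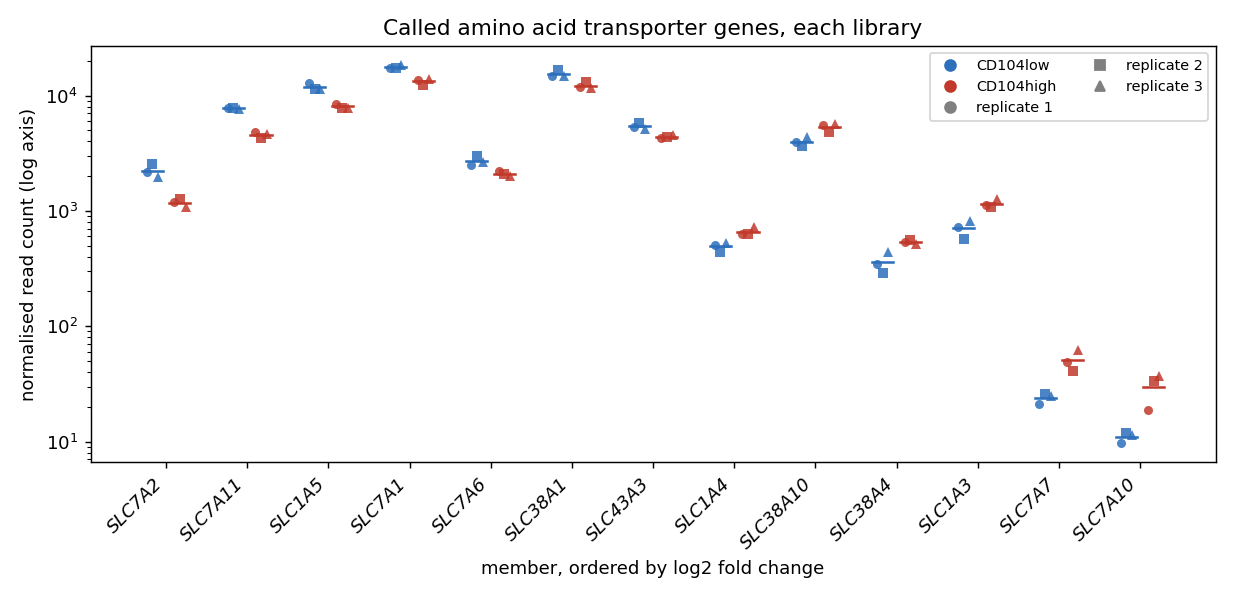
Normalised read count (log axis) of the 13 called members in each library, with CD104low in blue, CD104high in red, shapes for the replicate number and a bar at each group mean. The groups of each gene do not overlap, and SLC7A7 and SLC7A10 sit between 9.70 and 61.7 while the lowered genes lie above 1088.

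The carriers of arginine and lysine both fell. SLC7A1 (CAT1), the widely expressed form, had 13596, 12225 and 13948 in CD104high and 17224.5, 17453 and 18463 in CD104low. The 2 groups were well apart, with means of 13256 ± 911 and 17714 ± 659 (log2 fold change −0.42, SE 0.07, limma adjusted p = 0.00314). Its gene (ENSG00000139514.13) spans chr13:29509410-29595688 on the minus strand.

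SLC7A2 (CAT2), whose expression in many tissues is induced, fell most among the called members. Its gene (ENSG00000003989.17) had 1195, 1261 and 1089 in CD104high and 2178, 2540.4 and 1976 in CD104low, which is 1182 ± 86.7 against 2232 ± 286 (log2 fold change −0.91, SE 0.11, limma adjusted p = 0.000552). Per kb, SLC7A1 and SLC7A2 together had 1873 ± 109 in CD104high and 2585 ± 67.9 in CD104low. The related SLC7A4 had values from 0.970 to 35.6, spread over both groups, and did not enter the test.

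SLC1A5 (ASCT2), the sodium-dependent exchanger that takes up glutamine, fell, and SLC1A4 (ASCT1), its relative for alanine, serine and cysteine, rose. SLC1A5 (ENSG00000105281.12, chr19:46774883-46788594, minus strand) had 8530.4, 7850.3 and 7861 in CD104high and 12824.5, 11401 and 11437 in CD104low. The highest CD104high value was well under the lowest CD104low value (8081 ± 390 against 11888 ± 812, log2 fold change −0.56, SE 0.07, limma adjusted p = 0.000932). The 250 bases before the RefSeq start that carries the C/EBP-ATF match are shown to place the element, with the match in capitals. This start lies inside the span above, and another window of SLC1A5 (chr19:46787244-46787543) held no such match.
SLC1A5 (chr19:46784815-46785064, minus strand): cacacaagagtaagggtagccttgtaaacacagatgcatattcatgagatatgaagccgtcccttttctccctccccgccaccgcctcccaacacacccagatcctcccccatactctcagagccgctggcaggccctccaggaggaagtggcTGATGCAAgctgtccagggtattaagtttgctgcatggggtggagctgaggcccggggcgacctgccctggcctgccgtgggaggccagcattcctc

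SLC1A4 (ENSG00000115902.11, chr2:64988477-65023865, plus strand) had 626, 634 and 724 in CD104high and 509, 444 and 525 in CD104low. The groups did not overlap, though the gap was narrow (log2 fold change 0.42, SE 0.12, limma adjusted p = 0.0270). The call was lost without CD104high replicate 1 (0.0633), 2 (0.0642) or 3 (0.0936), without CD104low replicate 2 (0.0935) and without both libraries numbered 3 (0.0535).

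Among the carriers of glutamate and aspartate, SLC1A3 (EAAT1, also GLAST) rose. Its gene (ENSG00000079215.14) spans chr5:36606355-36688334 on the plus strand. It had 1125, 1079.9 and 1259.6 in CD104high and 722, 574 and 816 in CD104low, with no overlap (1155 ± 93.4 against 704 ± 122, log2 fold change 0.73, SE 0.13, limma adjusted p = 0.00459). SLC1A1 (EAAT3) had 73.1, 91.3 and 28.8 against 29.1, 51.2 and 8.24, so the groups overlapped, but the CD104high library was the higher in each of the 3 numbered pairs. Its log2 fold change of 1.27 (SE 0.62) had a limma adjusted p of 0.167, and 0.00938 with the replicate block, where it was called. Without both libraries numbered 3 its adjusted p was 0.0285. SLC1A7 (EAAT5) had values from 7.88 to 34.7 and SLC1A2 (EAAT2) from 5.91 to 11.6, and neither passed the test.

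The SLC38 carriers, most of them sodium-coupled carriers of small neutral amino acids and glutamine, split 3 ways within 1 stretch of chromosome 12. SLC38A1 (SNAT1, ENSG00000111371.16, chr12:46183063-46270017) fell, SLC38A2 (SNAT2, ENSG00000134294.14, chr12:46358189-46372867) lies 88.2 kb further on and did not pass the test, and SLC38A4 (SNAT4, ENSG00000139209.16, chr12:46764761-46832408) lies another 391.9 kb on and rose. The 3 genes are on the minus strand.

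SLC38A1 had 11846, 12981 and 11569.8 in CD104high and 14678, 16818 and 14789 in CD104low, with no overlap (log2 fold change −0.35, SE 0.08, limma adjusted p = 0.0111). The adjusted p was 0.0507 without CD104high replicate 1 and 0.0521 in limma without the trend. SLC38A2, a gene induced by amino acid shortage, had 13526, 16229.7 and 13950.1 against 13425, 15056 and 14998, so its values interleaved (log2 fold change 0.00, 95% interval −0.18 to 0.19, adjusted p = 0.974). SLC38A4 had 539, 559.8 and 521 against 344, 291 and 443, with no overlap (log2 fold change 0.61, SE 0.16, adjusted p = 0.0202). The SLC38A4 call was lost without CD104high replicate 1 (0.0731) or 2 (0.0726), without CD104low replicate 1 (0.0547) or 2 (0.0644), and in limma without the trend (0.0532).

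SLC38A10 (ENSG00000157637.13, chr17:81245000-81295547, minus strand), a less studied member of the family, had 5608, 4814 and 5652 in CD104high and 3958, 3640.3 and 4372 in CD104low. It was the 1 member above the median level that rose (log2 fold change 0.43, SE 0.09, limma adjusted p = 0.00893). With the trend of length and GC content removed it had 0.23 (adjusted p = 0.0737).

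SLC38A7 and SLC38A9 act at the lysosome, SLC38A9 as an arginine sensor that signals to mTORC1. SLC38A7 had 1777, 1580.2 and 1513 against 1646, 1613 and 1588, and SLC38A9 had 913, 1000.5 and 1059.9 against 859.6, 1003 and 918. Both genes interleaved between the groups, with 95% intervals of the log2 fold change from −0.19 to 0.19 and from −0.13 to 0.32 (limma adjusted p = 0.98 and 0.53). SLC38A6 lay higher in CD104high with no overlap but did not pass (log2 fold change 0.30, limma unadjusted p = 0.0491, adjusted p = 0.134). It was called with the trend of length and GC content removed together with the replicate block (adjusted p = 0.0276). With either alone it was not (0.0515 and 0.0747). SLC38A5 had values from 1.97 to 12.4 and was not tested.

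Of the proton-coupled carriers, SLC36A1, a lysosomal exporter of small neutral amino acids, had 1722, 1618 and 1785 in CD104high and 1687, 1798 and 1724 in CD104low, so that the groups interleaved (95% interval of the log2 fold change −0.20 to 0.15). SLC36A4 had 4601, 5730.2 and 4782 against 5982, 6256 and 5459. CD104high replicate 2 reached above the lowest CD104low library, and the CD104high library was lower in each numbered pair. Its log2 fold change of −0.23 (SE 0.09) had a limma adjusted p of 0.0993, 0.0277 with the replicate block and 0.0368 without CD104high replicate 2. Limma, edgeR, DESeq2 and limma-voom each called 0 of these 2 genes, and SLC36A4 had an unadjusted p under 0.05.

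The SLC43 family carries large neutral amino acids by facilitated diffusion in the case of SLC43A1 (LAT3) and SLC43A2 (LAT4), and nucleobases in the case of SLC43A3. SLC43A3 (ENSG00000134802.17, chr11:57406954-57427580, minus strand) fell, with 4262, 4332 and 4570.1 in CD104high and 5337, 5753 and 5157 in CD104low (log2 fold change −0.30, SE 0.07, limma adjusted p = 0.0123). The call was lost without CD104high replicate 1 (0.0529) or 2 (0.0501) or CD104low replicate 2 (0.0527). SLC43A1, which lies 57.0 kb away, had a log2 fold change of −0.13 (adjusted p = 0.541). SLC43A2 had 392.2, 311 and 257 against 458, 407 and 359, lower in each numbered pair, with a log2 fold change of −0.36 (SE 0.17), an adjusted p of 0.155, and of 0.0358 with the replicate block.

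None of the 5 tested SLC6 carriers, sodium- and chloride-coupled carriers of taurine, creatine, glycine and other solutes, passed in limma, edgeR or limma-voom, and 2 had an unadjusted limma p under 0.05. SLC6A6, the taurine carrier, had 10418.5, 9040.4 and 9137 in CD104high and 10427, 11186 and 11043 in CD104low. CD104high replicate 1 was just under the lowest CD104low library, and the other 2 were clearly lower (log2 fold change −0.19, SE 0.07, limma adjusted p = 0.0843). It was called without CD104high replicate 1 (0.0476) and with the trend of length and GC content removed (0.0193). SLC6A9, the glycine carrier GLYT1, had 975, 1021 and 838 against 815, 789 and 691, with no overlap. Its log2 fold change of 0.30 (SE 0.11) had an adjusted p of 0.0792 with limma, 0.0491 with DESeq2, 0.0224 with the replicate block and 0.0499 without CD104high replicate 3, while CCDC24, which overlaps its span, was also higher (0.50, adjusted p = 0.0369). SLC6A8 had values from 465 to 551, SLC6A14 from 21.7 to 39.1 and SLC6A16 from 7.88 to 26.8, and SLC6A4, with 4.94 to 13.9, was not tested.

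**Figure D3:**
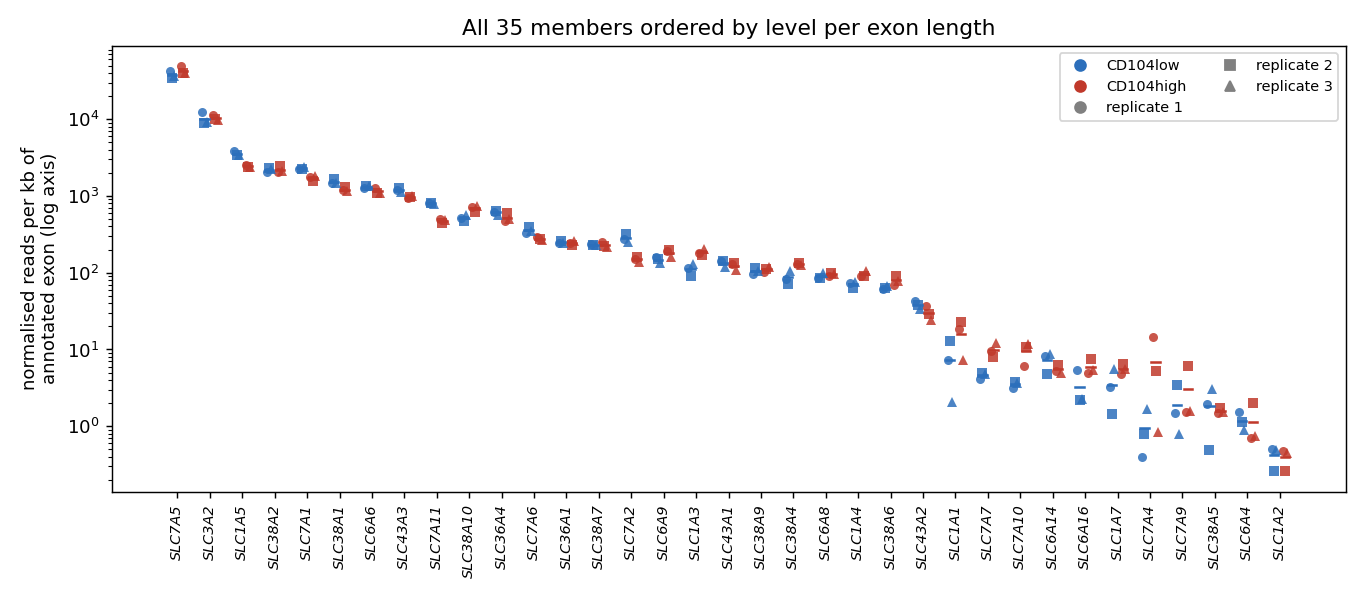
Level of each of the 35 members in every library, in normalised reads per kb of annotated exon (log axis), ordered by level, with CD104low in blue and CD104high in red. SLC7A5 and SLC3A2 stand above the other members in both groups, and the genes at the right, below about 20 per kb, have the widest spread between libraries.

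Ratios of 2 members within a library were taken for 4 pairs after the values had been seen, as a description. SLC1A5 over SLC1A4 was 13.6, 12.4 and 10.9 in CD104high and 25.2, 25.7 and 21.8 in CD104low. SLC38A1 over SLC38A4 was 21.96, 23.2 and 22.2 against 42.6, 57.7 and 33.4. The SLC38 ratio was steady over the CD104high libraries and spread widely over the CD104low ones. SLC7A11 over SLC7A5 was 0.0208, 0.0228 and 0.0248 against 0.0396, 0.0472 and 0.0439, and SLC7A6 over SLC7A7 was 44.7, 51.2 and 32.6 against 117, 118 and 107. In each of the 4, the 3 CD104high values lay below the 3 CD104low values, with geometric means of the groups 1.91- to 2.70-fold apart. Each pair put a member that fell over a member that rose or, for SLC7A5, was not called. The shared direction was thus set by the choice of pairs and is no separate result.

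**Figure D4:**
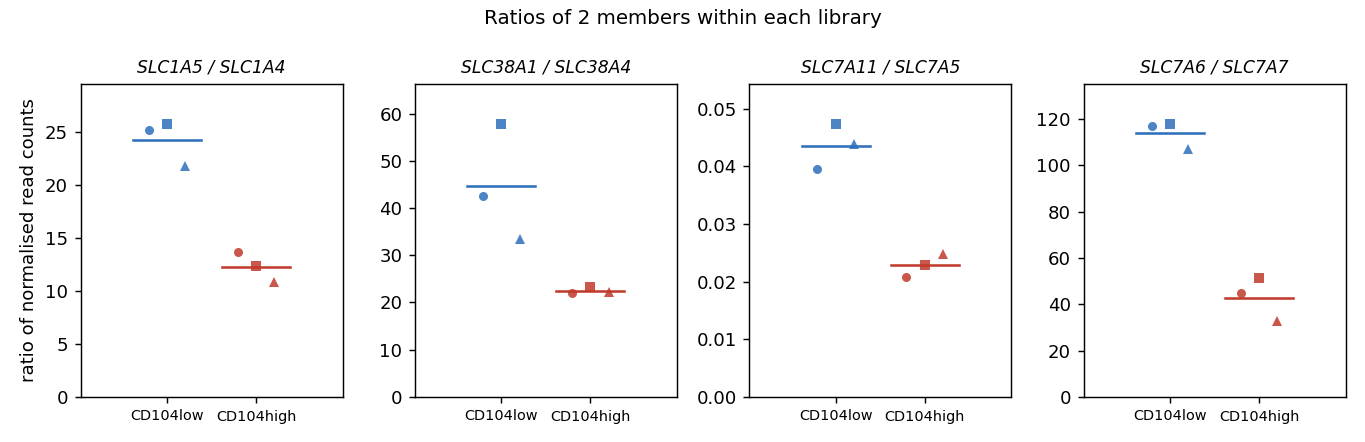
Ratio of the normalised read counts of 2 members within each library, for 4 pairs, with a bar at each group mean and shapes for the replicate number; each vertical axis starts at 0. The CD104high points lie below the CD104low points in each pair, for SLC1A5 over SLC1A4 at 10.9 to 13.6 against 21.8 to 25.7.

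Genes around amino acid transport were read from 8 lists, and each count stands against 12.1% higher and 11.3% lower of all tested genes (17.4% and 15.4% with the replicate block). The response to uncharged tRNA, in which GCN2 (EIF2AK4) raises ATF4 and its targets, had 7 lower and 0 higher of 19 tested genes, with a median log2 fold change of −0.15. Of all tested genes above the median level, 18.5% were lower. The 5 with the smallest p were PSAT1, an enzyme of serine synthesis (5220 ± 146 against 7362 ± 757, log2 fold change −0.49, limma adjusted p = 0.00269), PPP1R15A, which directs the removal of phosphate from eIF2 (−0.48), CEBPG, a partner of ATF4 (−0.48), and the folate enzymes SHMT2 (−0.37) and MTHFD2 (−0.39). EIF2AK4 and ATF3 also fell. ATF4 itself had 11782 ± 679 against 12851 ± 2828 (adjusted p = 0.6), and ASNS, CHAC1 and TRIB3 did not pass either. No gene of this list was higher at an unadjusted limma p under 0.05 or by edgeR, DESeq2 or limma-voom. With the replicate block DDIT4 was higher (0.27, adjusted p = 0.00681).

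The arginine list holds genes around the use and synthesis of arginine and the use of ornithine. It had 4 lower and 1 higher of 8 tested genes, against 11.3% lower and 12.1% higher of all tested genes. ODC1, which makes putrescine from ornithine, had 5195, 5672 and 6037 in CD104high and 15482, 12805 and 12119 in CD104low (log2 fold change −1.25, SE 0.10, limma adjusted p = 0.00013). The lowest CD104low library had over 2 times the reads of the highest CD104high library. ARG2, the mitochondrial arginase, had 195 ± 45.8 against 447 ± 62.2 (−1.21), and PRMT1 (−0.49) and AZIN1 (−0.21), an arginine methyltransferase and a relative of ODC1 that frees it from its inhibitor, also fell. ASS1, which makes arginine anew from citrulline, rose (817 ± 78.6 against 491 ± 95.3, 0.74, adjusted p = 0.00609).

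In the list of cystine use and glutathione, 3 of 16 tested genes were higher and 2 lower, against 12.1% and 11.3% of all tested genes. GCLM, a subunit of the enzyme that starts glutathione synthesis, fell (6541 ± 789 against 8473 ± 572, log2 fold change −0.38, limma adjusted p = 0.0158), as did CHAC2 (−0.55), which degrades glutathione. GPX4, the peroxidase that uses glutathione against lipid peroxides, rose (25112 ± 787 against 19655.5 ± 1540.2, 0.36, adjusted p = 0.00771). GGT5 (1.64) and GGT1 (1.49), which split glutathione outside the cell, rose as well. GGT1 was at a low level (34.4 ± 3.20 against 11.6 ± 0.919). GGT5 spread widely over the CD104low libraries (580, 481 and 1366). With the replicate block NFE2L2, which activates genes of this kind, was also higher (0.19, adjusted p = 0.0352).

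Among enzymes of glutamine, glutamate and aspartate, 3 of 13 tested genes were lower (GOT2 −0.43, GOT1 −0.29, ALDH18A1 −0.24) and GPT was higher (0.81). GLUD1 was also lower with the replicate block (−0.22, adjusted p = 0.0290). GLUL, the glutamine synthetase gene, had 5002 ± 155 against 4745 ± 196 (limma adjusted p = 0.433). Of the 12 branched-chain enzymes, which act on what SLC7A5 carries, 0 passed in limma, edgeR, DESeq2 or limma-voom, 2 had an unadjusted limma p under 0.05, and ACADSB was lower with the replicate block (−0.20, adjusted p = 0.0489).

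Of 35 tested genes that carry the amino acid signal to mTORC1, LAMTOR2, part of the lysosomal anchor, rose (log2 fold change 0.44) and SEH1L (−0.38) and NPRL3 (−0.25), parts of the GATOR complexes, fell. With the replicate block the counts were 5 higher and 4 lower. In the list of proteins that sort or hold carriers at the surface, 13 tested genes gave 1 higher, TXNIP (6209 ± 910 against 3397 ± 373, 0.86, limma adjusted p = 0.00103), an arrestin relative that removes glucose carriers. One was lower, NEDD4L (−0.32), a ubiquitin ligase of membrane proteins, and SGK3 was higher with the block (0.44, adjusted p = 0.00601).

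Amino acid carriers outside the member families were higher in 4 and lower in 2 of 19 tested genes, against 12.1% and 11.3% of all tested genes. SLC17A5, a lysosomal carrier of sialic acid and acidic amino acids, had 4271, 5154 and 4925 in CD104high and 2748, 2795 and 2693 in CD104low (log2 fold change 0.80, limma adjusted p = 0.000326). SLC15A3, a lysosomal carrier of histidine and small peptides, rose by 0.95 (542 ± 88.1 against 280 ± 42.8). At the mitochondrion, SFXN3 (0.41) and SLC25A29 (0.38) rose while SFXN1 (−0.35), a serine carrier, and SLC25A15 (−0.34), an ornithine carrier, fell. SLC25A38 was also lower with the replicate block (−0.22, adjusted p = 0.0324).

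**Figure D5:**
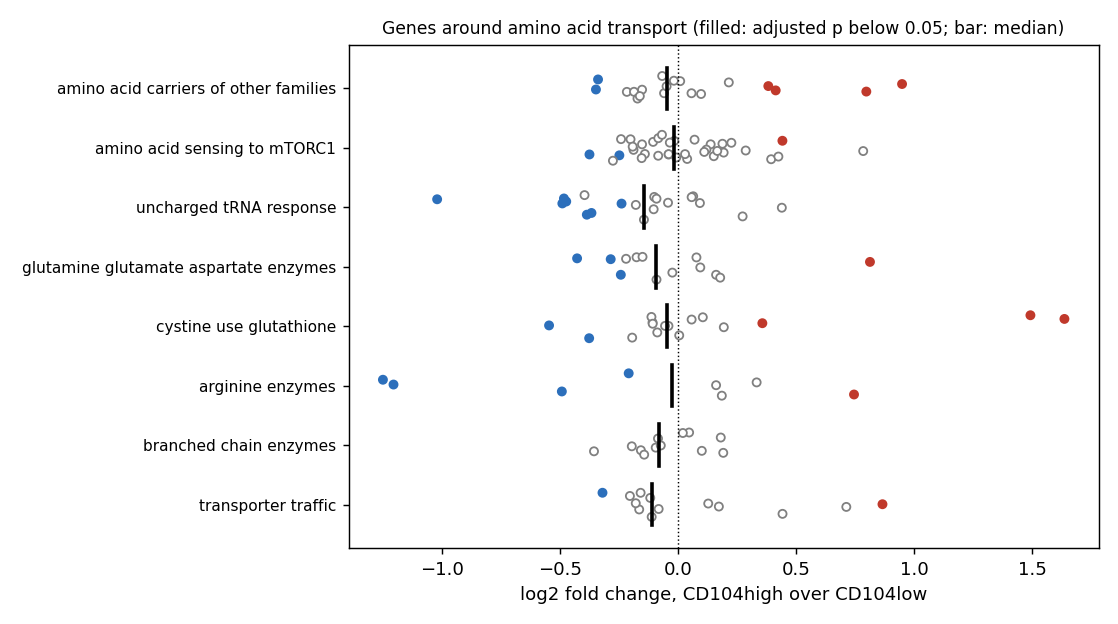
Log2 fold change (CD104high over CD104low) of each tested gene in 8 lists around amino acid transport, 1 list per row, filled where the limma adjusted p was under 0.05 and with a black bar at the median. The row of the response to uncharged tRNA holds 7 filled points, each below 0, and the row of branched-chain enzymes holds none.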

How the data were processed

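Total RNA of 6 libraries was analysed. Going by the submitters' processing notes, the tools were DESeq2 1.30.1, featureCounts 1.5.0, STAR 2.4.0 and FastQC and the build GRCh38.p13 (hg38), with no role given for any. Each library's values are a signal, which the authors deposited as gene reads divided by that library's size factor, as the steps of the values show. The authors also deposited a log2 fold change with its standard error, a test statistic (score) and p-values, with 1193 adjusted values empty. Of the row numbers, which run to 19893, 4869 are not used here, and the lowest recovered count is 1, so genes with 0 reads in a library were not analysed here. No per-sample column was left unused (0).

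Limma 3.58.1 (R 4.3.3, mean-variance trend) was fitted to log2(value + 1), which understates changes of low genes, for genes that reached 10 in 3 or more of 6 libraries (681 removed), with Benjamini-Hochberg adjustment over all tested genes. Intervals are 95% from this fit. The fit was also run on simulated data. The outcome is not given here, so nothing is drawn from it. Levels between genes are compared per kb of the union of annotated exons. Alternatives were edgeR 4.0.16, DESeq2 1.42.0 and limma-voom on whole reads recovered from the values (100% within 0.1 of a whole number, with the size of 1 read in CD104high replicate 2, 0.993, close to 1), other pseudocounts, filters, scalings, thresholds, each library left out, a length and GC correction and a replicate block.

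Same-numbered libraries deviated together (correlations across genes of their deviations from group means 0.166, 0.317 and 0.477, at most 0.129 between other numbers). These are for numbers 1, 2 and 3 in that order, and for number 1 the margin was small. Deviations within a group cancel out, so a shift shared by both libraries numbered 3 would by itself raise the correlations among the other libraries. The values thus show a shared deviation of the libraries numbered 3. They cannot decide if the libraries numbered 1, or those numbered 2, are pairs, and the labels say nothing on this. Results by numbered pair or with the replicate block rest on the numbering. The members and lists were chosen with earlier results of these data known. The rule for names took every member, per-library values of called members and of the 8 others with the highest mean, and up to 5 called genes of each list. Some genes are not reported here. Promoter sequences are from RefSeq.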

Additional observations from a re-analysis of the deposited data

How the results depend on the processing

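For the called members, 245 of 284 values under the alternatives kept their direction and their side of the threshold, 39 lost the call and 0 changed sign. Of the values of members not called, 357 kept their side, 16 passed, and 19 changed sign without passing. Leaving out 1 library at a time gave 2 to 5 higher and 5 to 7 lower members. Over all tested genes it gave 1017 to 1766 higher and 799 to 1547 lower. The higher count was 1017 without CD104high replicate 1 and 1120 without CD104high replicate 2. The lower count was 799 and 901 without these libraries and 1030 without CD104low replicate 2. Fewer samples enter each of these fits. At a threshold of 0.01, 2 members were higher and 4 lower, with 826 and 610 of all genes. Limma without the trend called 936 genes lower, and the cause was not tested. With the replicate block, which changed the calls of SLC1A1, SLC36A4, SLC43A2 and SLC6A9 and of no other member, 8 members were higher and 9 lower. With the replicate block in a fit corrected for length and GC content, 2698 genes were higher and 2545 lower, and 8 members higher and 10 lower. With the block at 0.01, an alternative chosen after seeing the data like that without both libraries numbered 3, 5 members were higher and 7 lower, with 1449 and 1045 of all genes. A minimum value of 50 took SLC7A7 and SLC7A10 out of the test. The calls of SLC7A11, SLC7A2, SLC1A5, SLC7A1 and SLC1A3 were kept under every alternative listed, the 0.01 threshold included. Members as low as SLC7A7 and SLC7A10 have too few reads to show a small difference.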

Other observations

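Other short elements were counted in the same promoter windows, on both strands. The full cAMP response element TGACGTCA, the site of the factor that protein kinase A activates, was in 0 of the 47 member windows and in 1.85% of all windows, and its short core TGACG in 14 (29.8%) against 24.6%. The E-box CACGTG was in 9 member windows (19.1%) against 7.26%, among them those of SLC7A5, SLC1A5, SLC43A1 and SLC7A7. The antioxidant element core TGACNNNGC, which can overlap TGACG, was in 7 (14.9%) against 13.3%. These are descriptions of letters, with no test, and no match says nothing of a factor outside the window.

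In the authors' deposited table, 6 members were higher and 7 lower at an adjusted p under 0.05, and 12 of these 13 were also called by limma. The share called over all genes there was not counted, so these counts do not set the members apart from other genes. The difference was SLC6A9, with an adjusted p of 0.0378 in the authors' deposited table, in place of SLC7A10, whose adjusted p there is empty beside a log2 fold change of 1.45. SLC7A4, too low for the test here, has a log2 fold change of 2.85 with an empty adjusted p in the authors' deposited table. Its normalised read counts were 35.6, 12.9 and 2.06 in CD104high and 0.970, 1.97 and 4.12 in CD104low, so CD104high replicate 1 held most of its reads. P2RX6, whose span overlaps SLC7A4, was higher in CD104high (416 ± 16.3 against 182 ± 38.6, limma adjusted p = 0.00126).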
